A study of Mus musculus with 3 samples.

Results

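Interferon-stimulated genes are the genes that cells switch on after interferon, and 43 of them are described here among the 33696 genes of the deposited gene table, across the retinal cell types of wild-type mice, mice without *Tspan12* and mice without endothelial *Ctnnb1*. The 43 genes were picked from the measured values of this series, because several of them led the endothelial cells (ECs) of the *Ctnnb1* conditional knockout, so their level in those ECs against wild-type ECs is given as a description and not as a finding. All 43 symbols were found in the table.

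Type I interferons (interferon alpha and beta) bind a receptor made of *Ifnar1* and *Ifnar2*, whose kinases activate STAT2. It joins IRF9 in a complex that binds the interferon-stimulated response element (ISRE) in the promoters of the induced genes, whereas interferon gamma acts on a different element, the gamma-activated site (GAS). The products block viral entry, translation and replication, sense foreign nucleic acid, and include STAT2, IRF9 and IRF7 themselves, so the response can feed itself. ECs and microglia both carry the receptor and are known to respond to interferon.

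Single-cell RNA sequencing was performed on retinas at postnatal day 6 from 3 genotypes, with 1 library each. The wild-type (WT) library came from C57BL/6 mice, the *Tspan12* KO library from constitutive *Tspan12* knockout mice and the *Ctnnb1* cKO library from *Ctnnb1* flox/flox mice carrying *Pdgfb*-iCreER, in which an endothelial promoter drives a tamoxifen-inducible Cre. The cKO pups had received tamoxifen from postnatal day 1. Each library was a pool of mice of both sexes on the same background, the WT controls were not littermates of the mutants, and all cells had been enriched with magnetic beads against CD31 (endothelium) and CD11b (microglia and other myeloid cells). Because each genotype had 1 library, genotype, tamoxifen and library cannot be told apart in any comparison, and no test between genotypes was possible.

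The libraries held 9151 to 14426 barcodes and 37008362 to 137114957 UMIs (a UMI marks 1 captured transcript), and 21 to 37 barcode sequences were shared between any pair of libraries. Hereafter, 3 values in a row stand for WT, *Tspan12* KO and *Ctnnb1* cKO in that order. ECs numbered 538, 289 and 2707, with median depths of 15872, 14754 and 3358 UMIs per cell. The median mitochondrial share of ECs was 3.80%, 2.28% and 0.38%. The 10 endothelial markers (*Pecam1*, *Cdh5*, *Cldn5* and others) summed to 9183, 8398 and 7673 UMIs per 1000000 UMIs of the same cells (CPM), and each of the 3 EC clusters carried at least 8 of the 10. EC subcluster 9 (60, 48 and 2 cells) was led by red cell and photoreceptor genes (*Hbb-bs*, *Hba-a1*, *Rcvrn*), although its WT and *Tspan12* KO cells had endothelial markers at 6198 and 5050 CPM, and the 43 genes summed to 1445 and 1248 CPM there. Rod markers summed to 197, 411 and 134 CPM over all ECs. Transcripts of the targeted genes were still counted in ECs, *Tspan12* at 95.8, 85.9 and 40.1 CPM and *Ctnnb1* at 524, 611 and 445 CPM. These 3′ counts can lie outside a deleted part and check nothing.

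The promoters of the genes were also read. The members are known interferon-stimulated genes, a class bound at the ISRE, so a high ISRE share follows from the kind of gene. It is a description and no separate support. RefSeq promoter sequences (build GRCm38.p6, 250 bases before to 50 bases after the start) were found for 33 of the 43 genes. The ISRE core was searched on both strands as GAAA and GAAA separated by any 2 bases, a spacing in which a neighbouring copy can overlap. It occurred in 17 of the 33 promoters (51.5%), against 1079 of 27025 genes (3.99%). The GAS motif, TTC and GAA separated by any 3 bases, occurred in 7 of the 33 (21.2%), against 9.55% of all genes. A match is a description of the letters and not a bound site. The 160 bases that end at the start of transcription are shown for 8 hand-picked genes, whose matches do not stand for all 33. The stretches are read 5′ to 3′ on the gene's own strand, with each ISRE core match on either strand in capitals. *Ifit1* (chr19:34640729-34640888, + strand), *Oas1a* (chr5:120907526-120907685, − strand), *Isg15* (chr4:156200819-156200978, − strand) and *Bst2* (chr8:71537473-71537632, − strand) hold 2, 2, 3 and 2 matches, and *Gbp2* (chr3:142620503-142620662, + strand), *Rsad2* (chr12:26456453-26456612, − strand) and *Trim30a* (chr7:104465194-104465353, − strand) hold 1 each. *Samd9l* (chr6:3399572-3399731, − strand), holds none, and neither do the windows of *Oasl1*, *Oasl2*, *Irf7* and *Xaf1*.
Ifit1: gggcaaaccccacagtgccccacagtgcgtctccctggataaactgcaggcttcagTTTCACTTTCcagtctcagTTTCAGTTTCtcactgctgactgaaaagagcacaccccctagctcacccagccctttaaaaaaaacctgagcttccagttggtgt
Oas1a: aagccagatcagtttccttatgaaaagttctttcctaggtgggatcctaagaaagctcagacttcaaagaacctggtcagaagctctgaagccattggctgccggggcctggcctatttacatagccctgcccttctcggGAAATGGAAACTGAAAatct
Isg15: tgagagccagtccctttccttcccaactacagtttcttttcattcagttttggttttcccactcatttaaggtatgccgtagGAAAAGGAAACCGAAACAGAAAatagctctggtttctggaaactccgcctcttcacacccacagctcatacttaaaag
Bst2: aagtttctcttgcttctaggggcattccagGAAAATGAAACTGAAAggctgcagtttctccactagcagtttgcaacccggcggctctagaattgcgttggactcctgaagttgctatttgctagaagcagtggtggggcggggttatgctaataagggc
Gbp2: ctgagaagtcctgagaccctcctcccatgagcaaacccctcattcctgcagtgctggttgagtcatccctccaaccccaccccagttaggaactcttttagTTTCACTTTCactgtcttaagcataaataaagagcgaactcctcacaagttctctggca
Rsad2: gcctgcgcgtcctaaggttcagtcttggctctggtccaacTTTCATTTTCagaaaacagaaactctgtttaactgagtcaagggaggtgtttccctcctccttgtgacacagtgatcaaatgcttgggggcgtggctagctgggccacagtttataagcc
Trim30a: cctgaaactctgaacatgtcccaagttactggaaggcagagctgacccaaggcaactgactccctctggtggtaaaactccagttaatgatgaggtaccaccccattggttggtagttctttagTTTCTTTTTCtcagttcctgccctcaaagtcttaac
Samd9l: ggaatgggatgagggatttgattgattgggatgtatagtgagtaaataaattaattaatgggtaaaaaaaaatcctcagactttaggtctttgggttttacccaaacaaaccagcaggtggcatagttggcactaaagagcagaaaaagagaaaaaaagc

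In *Isg15*, *Oas1a* and *Bst2* the matches overlapped into 1 tract of GAAA repeats, whereas in *Ifit1* a pair of matches lay apart from each other. The other promoters with the ISRE core were those of *Ifit3*, *Ifit3b*, *Oas3*, *Ifih1*, *Stat2*, *Ifitm3*, *Irgm1*, *Igtp*, *Gbp3* and *Gbp7*. GAS matches occurred in *Ifit2*, *Oas1a*, *Bst2*, *Ifitm3*, *Igtp*, *Gbp7* and *Ifi35*, of which *Ifit2* and *Ifi35* had no ISRE core in the window.

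In ECs the 43 genes together took 1456, 1348 and 6047 CPM. *Ifitm3*, *Ly6e* and *Bst2* held 71.5%, 68.2% and 60.02% of these UMIs, and without them the other 40 genes summed to 415, 429 and 2417 CPM. Both knockout libraries were set against WT as a log2 ratio of CPM, with a 95% interval that, like every interval and limit here, covers counting error only. In parentheses after the values of a gene stands the log2 ratio of *Ctnnb1* cKO to WT, or of the contrast the paragraph names, followed in places by its interval. Of the 43 genes, 41 reached 50 UMIs over the WT and *Ctnnb1* cKO ECs, and 40 of these were at least 2-fold higher in *Ctnnb1* cKO, where 8.38% of all 12805 genes with that count were at least 2-fold higher. The median log2 ratio was 2.76 for the members and -0.12 for all genes. Since the genes were picked from this contrast, nothing is read from these counts. The values of *Oas2* (0, 0 and 9 UMIs) and *Oas3* (0, 1 and 2 UMIs) were too low to compare.

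**Figure D1:**
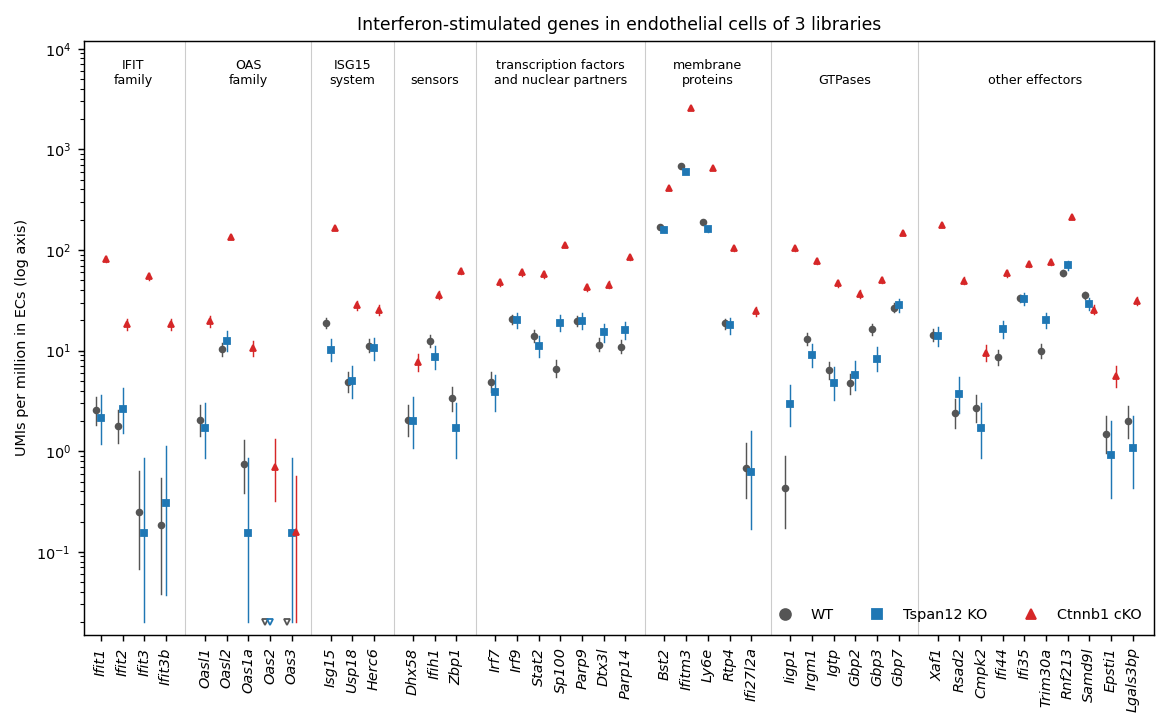
Level of each of the 43 genes in the ECs of the 3 libraries, in CPM on a log axis, with exact Poisson intervals as bars and open triangles at the lower edge for 0 UMIs. The WT and *Tspan12* KO points lie close together for most genes, and the *Ctnnb1* cKO points lie above both for all genes other than *Samd9l* and *Oas3*, the latter with nearly equal points in the 2 knockout libraries.

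The IFIT family, cytoplasmic proteins that bind viral RNA and hold back its translation, had the highest median log2 ratio of the role groups in *Ctnnb1* cKO ECs, 5.81 over 4 genes. *Ifit1* measured 2.54, 2.16 and 81.3 CPM (log2 ratio of cKO to WT 4.999, interval 4.55 to 5.49). *Ifit3* was nearly silent outside the cKO, with 4, 1 and 700 UMIs in ECs (7.78, 6.42 to 9.66). *Ifit3b*, a near-identical neighbour whose reads the counting can split with *Ifit3*, had 3, 2 and 234 UMIs. *Ifit2* stood at 1.80, 2.63 and 18.2 CPM (3.34, 2.78 to 3.95). All 4 were low in WT and *Tspan12* KO ECs, and their cKO values are among those from which the genes were picked.

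The OAS family makes 2′-5′ oligoadenylates that switch on RNase L, although OASL1 and OASL2 are known for other roles in antiviral defence. *Oasl2* measured 10.3, 12.5 and 134 CPM in ECs (log2 ratio of cKO to WT 3.70, 3.47 to 3.94). *Oasl1* measured 2.05, 1.70 and 19.5 CPM, and *Oas1a* 0.744, 0.154 and 10.5 CPM with 12 UMIs in WT. These 3 genes had log2 ratios between 3.25 and 3.82, whereas *Oas2* and *Oas3* stayed near the limit of counting in every library. The *Oas1* genes are close copies of each other, so the value of *Oas1a* is uncertain to that degree.

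The ISG15 system attaches the ubiquitin-like protein ISG15 to other proteins: *Herc6* encodes the ligase and *Usp18* the protease that removes ISG15 and also dampens the receptor. *Isg15* measured 18.7, 10.2 and 165 CPM in ECs (3.14, 2.96 to 3.32). *Usp18* measured 4.90, 4.94 and 28.3 CPM (2.53, 2.18 to 2.90), and *Herc6* 11.2, 10.5 and 25.3 CPM (1.17, 0.91 to 1.44). Of this group *Isg15* alone was lower in *Tspan12* KO than in WT with an interval below 0 (log2 ratio -0.88, -1.28 to -0.49).

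Among the sensors, *Ifih1* (MDA5) detects long double-stranded RNA, *Dhx58* (LGP2) modulates it and *Zbp1* recognises Z-form nucleic acid and can start cell death. *Zbp1* measured 3.35, 1.70 and 62.1 CPM (log2 ratio of cKO to WT 4.21, 3.81 to 4.64). *Ifih1* measured 12.5, 8.65 and 35.6 CPM (1.51, 1.27 to 1.76), and *Dhx58* 2.05, 2.01 and 7.64 CPM (1.90, 1.32 to 2.52). Each of the 3 was lowest in *Tspan12* KO ECs, *Dhx58* by a small margin.

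The transcription factors that carry the response were also higher. *Irf7*, which amplifies interferon production, measured 4.90, 3.86 and 47.9 CPM in ECs (3.29, 2.95 to 3.65). *Stat2* measured 14.1, 11.1 and 57.1 CPM (2.02) and *Irf9* 20.5, 19.9 and 59.7 CPM (1.54), both parts of the ISRE-binding complex. *Sp100*, a nuclear body protein, measured 6.64, 19.0 and 112 CPM, with log2 ratios over WT of 4.08 (3.80 to 4.38) for *Ctnnb1* cKO and 1.52 (1.13 to 1.90) for *Tspan12* KO. *Parp14*, *Dtx3l* and *Parp9*, which act in ADP-ribosylation and ubiquitylation, had ratios of 2.96, 1.98 and 1.13 in *Ctnnb1* cKO. Of these 7 genes *Sp100* was the only member at least 2-fold higher in *Tspan12* KO over all ECs.

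The membrane proteins were the most counted members. *Ifitm3*, which blocks viral fusion, measured 683, 600 and 2565 CPM (1.91, 1.88 to 1.94). *Ly6e* measured 191, 160 and 655 CPM (1.78), and *Bst2* (tetherin, which holds budding virus at the surface) 168, 160 and 410 CPM (1.29). *Rtp4* measured 18.6, 17.8 and 104 CPM (2.48). *Ifi27l2a*, a small membrane protein, had 11, 4 and 315 UMIs in ECs (5.17, 4.31 to 6.19). The 3 genes already abundant in WT ECs had smaller ratios than *Ifi27l2a*, and supplied most of the summed level in all libraries.

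The GTPases of the IRG and GBP families assemble on the vacuoles of intracellular parasites and bacteria, and many respond to interferon gamma as well as to type I interferon. *Iigp1* had 7, 19 and 1333 UMIs in ECs, with a log2 ratio of 7.90 (6.86 to 9.22) in the cKO, the highest of the 41 genes. The same gene had a ratio of 2.76 (1.44 to 4.25) in *Tspan12* KO, on under 50 UMIs. *Igtp* measured 6.39, 4.79 and 46.6 CPM (2.87), *Irgm1* 13.1, 9.11 and 77.8 CPM (2.56), *Gbp2* 4.71, 5.71 and 36.2 CPM (2.94), *Gbp7* 26.7, 28.1 and 146 CPM (2.45) and *Gbp3* 16.2, 8.34 and 50.4 CPM (1.63). The ratios of the other 5 GTPases lay between 1.63 and 2.94. Genes of the GBP family share sequence, so their single values are uncertain to that degree.

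Of the 10 other effectors, 9 were at least 2-fold higher in *Ctnnb1* cKO ECs. *Rsad2* (viperin, which makes a chain-terminating nucleotide) measured 2.42, 3.71 and 49.3 CPM (4.35, 3.88 to 4.85), and *Xaf1*, a pro-apoptotic factor, 14.3, 13.9 and 177 CPM (3.63). *Lgals3bp* measured 1.98, 1.08 and 31.1 CPM (3.97), *Trim30a* 9.92, 19.9 and 76.1 CPM (2.94) and *Ifi44* 8.62, 16.2 and 58.5 CPM (2.76). *Rnf213*, a large ubiquitin ligase known from moyamoya vasculopathy, measured 59.2, 70.1 and 210 CPM (1.83). *Cmpk2*, *Epsti1* and *Ifi35* had ratios of 1.83, 1.89 and 1.14. *Samd9l* was the exception, at 35.4, 29.2 and 25.6 CPM in ECs (-0.47, -0.67 to -0.27). With cells gated on detection of at least 3 endothelial markers in place of clusters its ratio turned to 0.64.

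Scaling can move such ratios, and trimmed mean scaling shifted the median of all genes in *Ctnnb1* cKO ECs from -0.12 to 0.02. The member nearest to the 2-fold line on the upper side was *Parp9* at 1.13, and the only member below it was *Samd9l*. In ECs the markers of microglia summed to 122, 101 and 446 CPM, with 10 of 10 markers higher in the cKO than in WT and none at 0, and those of macrophages and monocytes to 9.24, 16.5 and 62.0 CPM, also 10 of 10 higher. These levels in cKO ECs were 3.42% and 0.426% of the levels in the cKO microglia and macrophages themselves. The part of such RNA in the member values was not tested. The summed member level was 2928 CPM in cKO microglia, 6047 CPM in cKO ECs and 9749 CPM in cKO macrophages and monocytes.

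To compare ECs of the same cluster, the EC clusters were examined. The members and the other listed interferon genes, 173 in all, had been left out of the clustering. Genes outside these lists, such as *Cd74* and *H2-Eb1*, had not, and *Cd74* was among the 10 leading genes of cluster 4. Their part in the clusters was not tested. ECs fell into 3 clusters whose make-up differed between libraries. Cluster 15, led by *Slc38a5* and *Vwa1*, held cells of each library, 508 WT, 207 *Tspan12* KO and 342 *Ctnnb1* cKO cells. Cluster 4, led by *Dkk2*, *Slco1a4* and *Aqp1*, held 29, 76 and 1808 cells, and cluster 18, led by *Eln*, *Rasd1* and *Lrg1*, held 1, 6 and 557. In the shared cluster 15 the 43 genes summed to 1407, 1174 and 5578 CPM. Markers of microglia still differed there, summing to 123, 96.3 and 426 CPM, and their part in the member values was not tested. The progenitor markers summed to 939, 1082 and 1882 CPM, with 5 of 10 higher in the cKO than in WT. That list holds *Mki67*, *Top2a* and *Cdk1*, which dividing ECs carry as well. The part of dividing ECs in the comparison within cluster 15 was not tested.

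Within cluster 15, 37 members reached 50 UMIs and 34 of them were at least 2-fold higher in *Ctnnb1* cKO than in WT, where 5.62% of all 11736 genes were. The interval lay above 0 for 36 of the 37 genes and for 19.8% of all genes, and the median log2 ratio was 2.44 against -0.15 for all genes. *Isg15* measured 17.2, 7.42 and 160 CPM in cells of this cluster, *Ifit3* 0.258, 0.212 and 45.4 CPM and *Iigp1* 0.387, 0.636 and 76.99 CPM. *Ifitm3* measured 645, 523 and 2371 CPM. These cells are part of the contrast from which the genes were picked, so the counts are a description only. *Samd9l* stood at 35.6, 27.4 and 29.2 CPM with an interval that included 0 (-0.29, -0.66 to 0.07).

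The *Tspan12* KO ECs were set against WT in the same way. Of the 31 members with 50 UMIs, 2 were at least 2-fold higher, *Sp100* and *Trim30a*, where 2.11% of all 12207 genes were. The median log2 ratio of the members was -0.07 against 0.02 for all genes. *Trim30a*, a TRIM protein that restrains inflammatory signaling, measured 9.92 CPM in WT and 19.9 CPM in *Tspan12* KO ECs (1.01, 0.66 to 1.35). Intervals lay above 0 for 6 of the 31 members and 25.4% of all genes and below 0 for 8 members and 23.8% of all genes, so the member counts were near the background. The 8 included *Isg15*, *Gbp3* (16.2 against 8.34 CPM, -0.96), *Zbp1* (3.35 against 1.70 CPM, -0.98) and *Ifih1* (-0.53).

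The higher values of *Sp100* and *Trim30a* in *Tspan12* KO were not found in every set of ECs. In the shared cluster 15 *Sp100* measured 6.26 CPM in WT and 7.42 CPM in *Tspan12* KO (0.25, -0.36 to 0.82), and *Trim30a* 9.62 and 7.42 CPM (-0.37, -0.95 to 0.17), a turn in direction. Within that cluster 0 of 28 members with 50 UMIs were at least 2-fold higher (1.60% of all genes) and their median was -0.38. Of the 10 EC subclusters, both genes had their highest *Tspan12* KO levels in EC subcluster 4 (led by *Slco1a4*, *Six3os1* and *Nkd1*), *Sp100* at 56.1 CPM and *Trim30a* at 58.0 CPM. This subcluster held 52 of the 289 *Tspan12* KO ECs and 18 of the 538 WT ECs. *Iigp1* also measured 9.46 CPM there, 15 of its 19 *Tspan12* KO UMIs. The parts of EC make-up and of a difference within the same cells in these ratios were not tested.

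The 43 genes were next followed across EC subtypes, found by clustering the ECs alone after centring each library. Markers named 4 of the 10 subclusters: arterial-like, capillary-like, proliferative and tip-like ECs. Summed over the 43 genes, arterial-like ECs had 2457, 1921 and 8716 CPM, on 54, 21 and 342 cells. Capillary-like ECs had 1419, 1459 and 6961 CPM on 155, 52 and 400 cells, proliferative ECs 1203, 1019 and 5552 CPM on 118, 56 and 330 cells, and tip-like ECs 845, 911 and 5059 CPM on 31, 18 and 102 cells. The order arterial, capillary, proliferative, tip was the same in each library. In *Tspan12* KO the intervals of proliferative (980 to 1060 CPM) and tip-like ECs (805 to 1027 CPM) met, and every other pair of neighbours in this order was separated by its intervals. These do not cover differences between cells. In *Tspan12* KO 1 of 18 tip-like cells held 27.3% of the member UMIs, and 1 of 21 arterial-like cells 15.9%. The order covers the 4 named subclusters only, and the unnamed subcluster 4 had 2715 CPM in WT.

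Single genes showed how the subtypes differed. *Isg15* measured 38.9 CPM in WT arterial-like ECs against 15.5 in capillary-like, 14.3 in proliferative and 6.72 in tip-like ECs, and in *Ctnnb1* cKO 301, 175, 158 and 84.0 CPM in the same order. *Ifitm3* measured 1423, 571, 550 and 323 CPM in WT and 3937, 2711, 2448 and 2196 CPM in *Ctnnb1* cKO. *Iigp1* measured 227 CPM in cKO arterial-like ECs and 26.5 CPM in cKO tip-like ECs, where it rested on 12 UMIs. The gap between arterial-like and tip-like ECs was thus present in WT as well as in the cKO for *Isg15* and *Ifitm3*. *Iigp1*, at 1 and 0 UMIs in the same WT subtypes, could not be compared there.

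Over the 30 members with 50 UMIs in cKO arterial-like and tip-like ECs together, the arterial level was higher with an interval above 0 for 22 (21.3% of all genes) and lower for 1 (16.8% of all genes), *Rnf213* at -0.39 (-0.70 to -0.07). Their median was 0.92 against 0.09 for all genes. Between *Ctnnb1* cKO and WT the median member log2 ratio was 2.52 in arterial-like ECs, 2.55 in capillary-like ECs and 3.05 in proliferative ECs, with medians of all genes between -0.15 and -0.08. *Samd9l* had the lowest member ratio in each of these 3 subtypes, from -0.87 to -0.06. The cKO cells of these subtypes are part of the ECs from which the genes were picked. The cKO counts and medians by subtype are therefore a description only. In *Tspan12* KO against WT the member median was -0.09 in capillary-like and -0.31 in proliferative ECs.

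**Figure D2:**
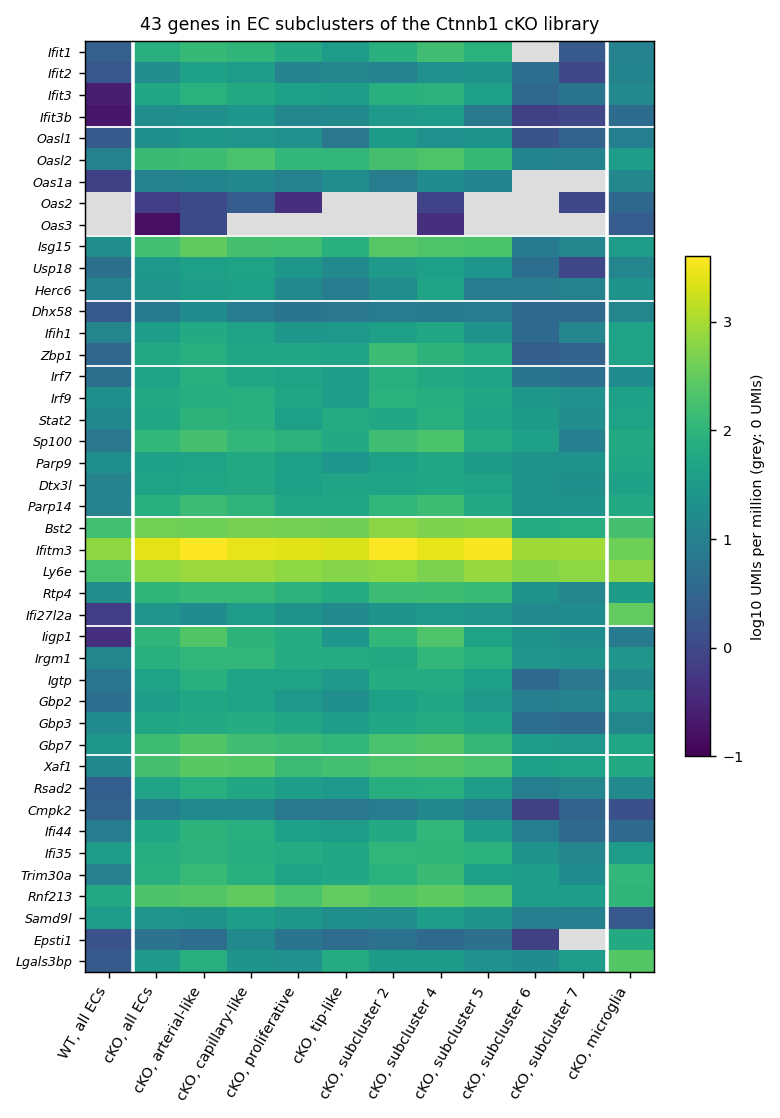
Level of each of the 43 genes in all WT ECs, in each *Ctnnb1* cKO EC subcluster and in *Ctnnb1* cKO microglia, as log10 CPM, with grey for 0 UMIs. The 2 subclusters that make up most of cluster 18 (6 and 7) are darker, that is lower, than the other cKO EC columns for most of the IFIT, OAS and GTPase genes and stay bright for *Ly6e*.

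Not all *Ctnnb1* cKO ECs had the high level. Cluster 18, of which 557 cells came from this library, summed to 2352 CPM over the 43 genes and to 604 CPM over the 40 genes without *Ifitm3*, *Ly6e* and *Bst2*, against 7452 and 3126 CPM in cKO cluster 4. Its median depth (3664 UMIs) and endothelial marker sum (7646 CPM) were near those of the other cKO ECs. Several members were picked because they led the cKO ECs, most of which lie in cluster 4. The choice itself favours that cluster, so the counts are a description only. Of 41 members, 39 were higher in cluster 4 than in cluster 18 with an interval above 0 (29.5% of all genes), and the median log2 ratio was 2.46 against 0.11 for all genes. *Ly6e* was the least different, at 636 CPM in cluster 18 and a log2 ratio of 0.06. 

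Against all WT ECs, cluster 18 was mixed gene by gene, and in that contrast cluster and library cannot be told apart. The median log2 ratio of 33 members was 0.56 against -0.29 for all genes, with 17 intervals above 0 (24.0% of all genes), 5 below 0 (42.5%) and 11 that included 0. *Isg15* measured 20.2 CPM in cluster 18 and 18.7 CPM in WT ECs (0.11, -0.34 to 0.53), and *Usp18*, *Herc6*, *Irf9* and *Rtp4* likewise had intervals that included 0. *Iigp1* (54 UMIs, 20.6 CPM, ratio 5.57), *Ifi27l2a* (43 UMIs, ratio 4.58) and *Lgals3bp* (77 UMIs, ratio 3.88) were above WT even in these cells. So was *Ifit3* (17 UMIs against 4 in WT, ratio 4.70), which was under 50 UMIs and not among the 33 members. In the cKO cells of the unnamed cluster 3, *Ifi27l2a* measured 30.8, *Lgals3bp* 11.6, *Ifit3* 3.21 and *Iigp1* 1.48 CPM. Of these genes *Ifi27l2a* alone stood higher there than in cluster 18. The part of RNA from other cells in the cluster 18 values was not tested. *Bst2* (105 CPM; -0.67), *Ifi35* (-0.69), *Gbp3* (-1.83), *Samd9l* (-1.90) and *Rnf213* (-0.27) were below. In the subcluster led by *Cyp26b1* and *Chrm2* (298 cKO cells) *Ifit1* had 0 UMIs and *Isg15* 11 UMIs, or 8.29 CPM.

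The cKO cells of the unnamed subclusters 2, 4 and 5 lay above the 6047 CPM of all cKO ECs. The subcluster led by *Zbp1*, *H2-Eb1* and *Cd74* (439 cKO cells) had 7991 CPM, with *Isg15* at 253 and *Zbp1* at 141 CPM. The cKO cells of subclusters 4 and 5 (311 and 273 cells) had 7341 and 7052 CPM. In WT, subcluster 4 had 2715 CPM, and 1 of its 18 cells held 596 of the 1028 member UMIs, among them 30 of 38 *Isg15* UMIs. That cell had 127339 UMIs in all, 0.468% of them from members, against a median of 0.137% over WT ECs. Without it the summed level of WT ECs was 1430 in place of 1456 CPM, *Rsad2* 1.31 in place of 2.42 CPM and *Usp18* 3.75 in place of 4.90 CPM.

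To see how widely the genes were on, each cell was thinned to 2000 UMIs, which left 520 WT, 260 *Tspan12* KO and 1883 *Ctnnb1* cKO ECs and dropped 18, 29 and 824 shallower ones. A cell with at least 3 member UMIs was found in 53.8% (49.5 to 58.2%) of WT, 50% (43.8 to 56.2%) of *Tspan12* KO and 93.1% (91.9 to 94.2%) of *Ctnnb1* cKO ECs. Without thinning the shares were 94.2%, 88.2% and 93.2%. The median cell held 3, 2.5 and 11 member UMIs from 2, 2 and 5 genes.

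Without *Ifitm3*, *Ly6e* and *Bst2*, the share of thinned ECs with at least 3 member UMIs was 7.88%, 10% and 60.6%. In the cKO the share with all 43 genes was 98.6% in cluster 4, 95.8% in cluster 15 and 78.3% in cluster 18, and without the 3 genes 16.9% in cluster 18. *Isg15* was detected in 3.85%, 2.69% and 23.9% of thinned ECs, *Ifit1* in 0.385%, 0.769% and 12.2% and *Ifitm3* in 66.3%, 62.3% and 94.1%. For comparison, thinned neurons and precursors of the cKO held *Isg15* in 1.84%, *Ifit1* in 1.27% and *Ifitm3* in 33.4%. Their median depth before thinning was 2205 UMIs against 3358 in ECs. The EC shares of all 3 genes were above those, which the choice of the genes from cKO ECs itself favours. The part of RNA from outside the cell was not tested in either class.

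**Figure D3:**
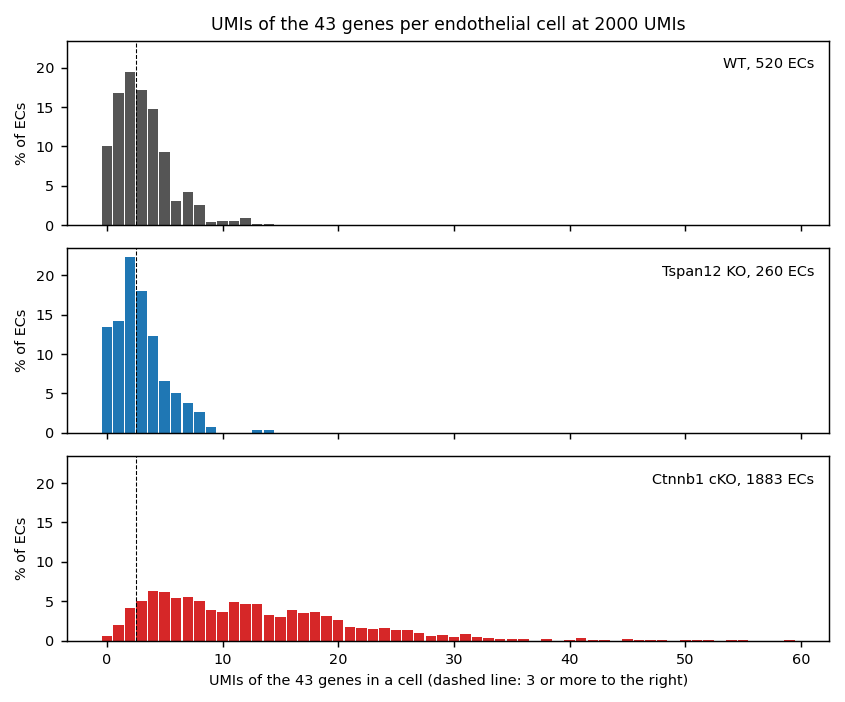
Percent of ECs by the number of member UMIs after thinning each cell to 2000 UMIs, for the 3 libraries. The WT and *Tspan12* KO distributions peak at low counts and reach 14 UMIs, whereas that of *Ctnnb1* cKO is spread around a median of 11 UMIs and reaches 59.

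The genes around the response were then examined in ECs, from lists that were likewise chosen with earlier results of these data known. The receptor chains *Ifnar1* (91.5, 67.6 and 93.9 CPM), *Ifnar2* (138, 122 and 131 CPM), *Ifngr1* (53.8, 70.3 and 50.7 CPM) and *Ifngr2* (60.3, 65.0 and 68.6 CPM) were all present. Of the 8 receptor and kinase genes with 50 UMIs, 0 were at least 2-fold higher in *Ctnnb1* cKO, where 8.38% of all genes were. With so few genes this count is near the background. Their median log2 ratio was 0.09. *Irf1* measured 34.0, 34.9 and 113 CPM (1.73) and *Irf8* 9.55, 17.0 and 24.4 CPM (1.35), whereas *Irf3*, which is activated without new transcription, measured 26.1, 29.5 and 30.2 CPM (0.21). Markers of microglia stood in ECs at 0.753% of their microglial level in WT and at 3.42% in *Ctnnb1* cKO. The part of microglial RNA in the *Irf8* values was not tested.

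Of 15 nucleic acid sensing genes, 3 were at least 2-fold higher, again against a background of 8.38%. *Rigi* measured 29.5, 20.7 and 82.9 CPM (1.49), but *Cgas* measured 9.80, 8.03 and 7.87 CPM (-0.32, -0.69 to 0.05) and *Sting1* 26.9, 30.9 and 24.4 CPM (-0.14, -0.35 to 0.07). Of 8 negative regulators 5 were higher, among them *Socs1*, which inhibits JAK kinases, at 2.67, 6.18 and 9.82 CPM (1.88). *Socs1* was also higher in *Tspan12* KO (1.21, 0.55 to 1.87).

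A list of 68 other interferon-stimulated genes extended the view, with 59 at 50 UMIs, of which 43 were at least 2-fold higher in *Ctnnb1* cKO ECs (background 8.38%) and a median log2 ratio of 1.84. The highest were *Phf11b* (1, 3 and 86 UMIs), *Tgtp1* (2, 0 and 149 UMIs), *Cxcl9* (1, 0 and 69 UMIs), *Tgtp2* (0, 0 and 145 UMIs, at least 60.8-fold higher than in WT against a limit of 3 UMIs) and *Slfn2* (11, 44 and 374 UMIs). *Tgtp1* and *Tgtp2*, and the *Phf11* genes, are near copies, so their split is uncertain. The lowest were *Pnpt1* (28.5, 24.1 and 14.0 CPM, -1.03), *Ifi27* (58.4, 42.2 and 38.0 CPM, -0.62) and *Apol9b* (6.20, 0.772 and 5.46 CPM, -0.18). *Samd9l* was therefore not alone among interferon-stimulated genes in lying at or below its WT level.

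Transcripts of the interferons themselves were rare. Over 20 ligand genes and all cells kept, the 3 libraries held UMIs of 4 genes. *Ifnb1* had 35 UMIs, all in the *Tspan12* KO library, *Ifne* had 2 in WT ECs, *Ifnk* had 1 in WT progenitors, 1 in *Tspan12* KO progenitors and 1 in *Tspan12* KO Muller glia, and *Ifna1* had 1 in *Ctnnb1* cKO microglia. *Ifng* had 0 UMIs in each library. No ligand was detected in *Ctnnb1* cKO ECs, where 0 of 12828805 UMIs allows up to 0.234 CPM.

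Microglia, the resident macrophages of the retina, were the other large class in the cKO library. Over 282, 369 and 2133 microglia the 43 genes summed to 1213, 995 and 2928 CPM. Of 37 members with 50 UMIs, 27 were at least 2-fold higher in *Ctnnb1* cKO than in WT, where 9.49% of all 10465 genes were, and the interval lay above 0 for 34 (28.6% of all genes). The members had a median of 1.65 against 0.06 for all genes. The Cre driver is endothelial. This contrast is another one than that from which the genes were picked, although both rest on the same libraries. Some members reached 50 UMIs only through the cKO microglia, which favours a high ratio.

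By role, *Ifit1* measured 0.763, 4.83 and 10.9 CPM in microglia, the first on 2 UMIs (3.83, 1.93 to 6.90). *Oasl2* measured 3.05, 7.06 and 36.8 CPM (3.59) and *Oasl1* 0.763, 0.372 and 9.66 CPM (3.66). *Irf7* measured 2.29, 2.97 and 17.3 CPM (2.92, 1.76 to 4.39). *Ifitm3* measured 43.5, 10.8 and 377 CPM (3.12, 2.85 to 3.40). These 5 genes had the highest ratios of the members with 50 UMIs and a WT count above 0. *Ifit1*, *Oasl2*, *Oasl1* and *Irf7* passed 50 UMIs through their cKO counts, which favours a high ratio. They had 2, 8, 2 and 6 UMIs in WT microglia against 81, 274, 72 and 129 in the cKO.

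Other members were already abundant in microglia without the knockout. *Ly6e* measured 407, 278 and 636 CPM (0.64), *Ifi27l2a* 58.4, 46.8 and 308 CPM (2.40), *Lgals3bp* 79.0, 103 and 248 CPM (1.65) and *Trim30a* 83.6, 72.1 and 110 CPM (0.39). *Isg15* measured 15.6, 6.32 and 33.4 CPM (1.10, 0.61 to 1.61). The smallest ratios were those of *Ifih1* (38.5, 28.2 and 46.8 CPM, 0.28) and *Gbp3* (10.7, 4.46 and 13.02 CPM, 0.29), both with intervals that included 0. *Iigp1* had 0 UMIs in WT and *Tspan12* KO microglia and 60 in the cKO, at least 7.04-fold higher than in WT. *Ifit3b*, *Oas2*, *Oas3*, *Cmpk2*, *Ifi44* and *Samd9l* were under 50 UMIs.

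The libraries drew on different microglial clusters. Cluster 5, led by *Cd300lf*, *Il1b* and *Ccl12*, held 10, 21 and 1841 cells, and there the 43 genes summed to 1483, 1480 and 2829 CPM. Cluster 19, led by *Gpr34*, held 164, 255 and 29 cells, and in this main WT cluster the sums were closer, at 1182 (1136 to 1229), 989 (948 to 1031) and 1707 (1518 to 1913) CPM. Cluster 22, led by *Hmox1* and *Lgals3*, held 101, 77 and 60 cells, and there the 43 genes summed to 1484 (1341 to 1639), 698 (575 to 839) and 2323 (2045 to 2628) CPM. Endothelial markers summed to 176, 91.4 and 386 CPM in microglia, or 1.92%, 1.09% and 5.04% of the EC level, with 10 of 10 higher in *Ctnnb1* cKO than in WT and none at 0. Their part in the member values was not tested. *Ifi27l2a* had a higher level in cKO microglia (308 CPM) than in cKO ECs (24.6 CPM).

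In *Tspan12* KO microglia 0 of 20 members with 50 UMIs were at least 2-fold higher than in WT, where 1.93% of all 8792 genes were, and 2 were at least 2-fold lower (1.57% of all genes). The latter were *Ifitm3* (-2.01, -2.65 to -1.41) and *Isg15* (-1.31, -2.22 to -0.46). The median was -0.22 against 0.09 for all genes. Most IFIT UMIs of these microglia lay in 1 cell, the one that held 29 of the 35 *Ifnb1* UMIs. It carried 13 of 13 *Ifit1*, 21 of 31 *Ifit2* and 13 of 19 *Ifit3* UMIs of the class, and without it their levels were 0, 3.72 and 2.23 CPM in place of 4.83, 11.5 and 7.06 CPM.

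ECs and microglia of the *Ctnnb1* cKO were set side by side within the library. Several members were picked because they led these ECs, so the choice itself favours ECs and the counts are a description only. Of 41 members, 30 had a higher CPM in ECs with an interval above 0 (40.2% of all genes), 7 a lower one (33.3%) and 4 an interval that included 0, with a median log2 ratio of 1.03 against 0.09 for all genes. *Ifi44* (3.96), *Samd9l* (3.77), *Iigp1* (3.69), *Ifit1* (2.90), *Cmpk2* (2.82) and *Ifitm3* (2.77) were most in favour of ECs. *Ifi27l2a* (-3.65), *Epsti1* (-3.53) and *Lgals3bp* (-2.998) were most in favour of microglia, followed by *Dhx58*, *Trim30a*, *Ifih1* and *Parp9*. In WT, over 31 members, the median was 0.26 with 10 intervals above 0 (42.8% of all genes) and 11 below (26.2%).

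**Figure D4:**
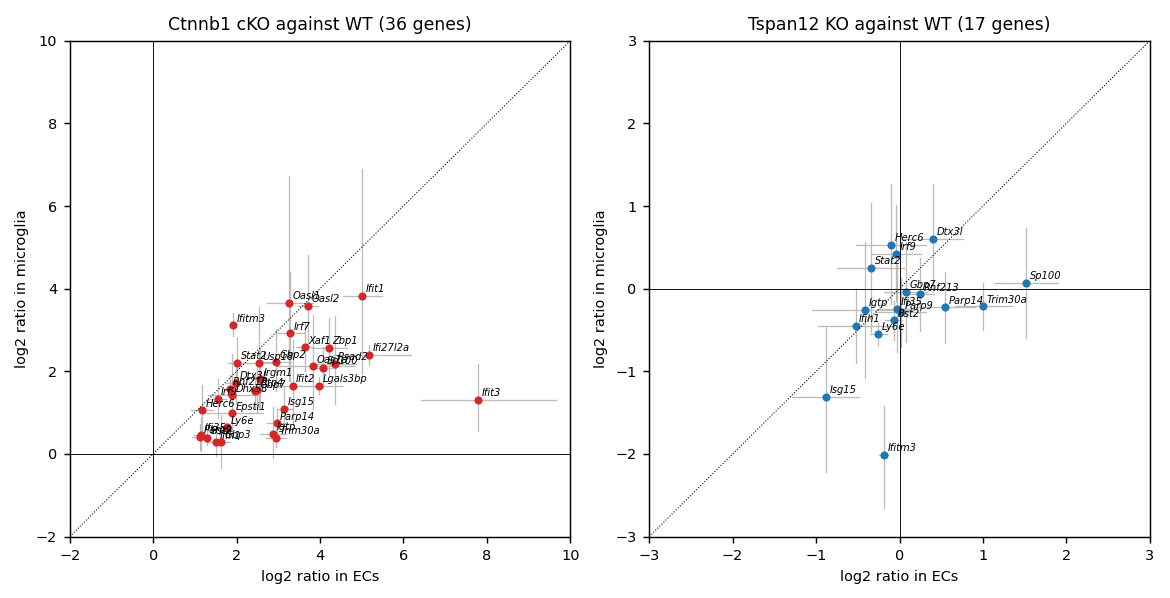
Log2 ratio of each member against WT in ECs (x axis) and microglia (y axis), for *Ctnnb1* cKO (36 genes) and *Tspan12* KO (17 genes), with the diagonal of equal ratios; the axes share the library and, within a panel, the same pair of genotypes. In *Ctnnb1* cKO 3 of the 36 genes lie above the diagonal, and in *Tspan12* KO 6 of 17. The genes were picked for their level in *Ctnnb1* cKO ECs, which favours the x axis of that panel. Nothing is read from its count.

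Macrophages and monocytes outside the microglia, led by *F13a1*, *Mrc1* and *Pf4*, had the highest summed level of any named class, 9749 CPM in 302 *Ctnnb1* cKO cells. The *Tspan12* KO library held 22 such cells with 5742 CPM and WT 2 cells, so no WT level is given. *Ifi27l2a* measured 2305 CPM, *Ly6e* 1751, *Ifitm3* 1239 and *Oasl2* 187 CPM in the cKO cells. Within the cKO, 36 of 39 members were higher in these cells than in microglia with an interval above 0 (15.1% of all genes), and *Oas2*, near the limit in ECs, was higher by 4.35 on the log2 scale. The *Tspan12* KO cells had 101 CPM of *Isg15* and 130 CPM of *Ifit2*, on 14 and 18 UMIs.

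Mural cells (pericytes and smooth muscle, led by *Rgs5* and *Higd1b*) numbered 15, 60 and 85 and had 1456, 1559 and 5074 CPM. Between the cKO and *Tspan12* KO libraries all 14 members with 50 UMIs had intervals above 0 (16.4% of all genes), with a median log2 ratio of 1.98, from 1.32 (*Ifitm3*) to 3.25 (*Parp14*). *Isg15* measured 36.6, 18.8 and 167 CPM and *Iigp1* 8.33, 23.6 and 210 CPM. Endothelial markers were high in these cells in each library, at 6157, 5434 and 5445 CPM, and the part of endothelial RNA in the mural values was not tested. In the cKO *Iigp1* measured 104 CPM over all ECs and 227 CPM in arterial-like ECs.

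Glia were few in the cKO. Astrocytes numbered 21, 50 and 21 and had 347, 230 and 2484 CPM, the cKO value resting on 127 member UMIs. Endothelial markers moved with it, at 202, 583 and 1095.5 CPM in astrocytes, and their part was not tested. Muller glia numbered 538, 708 and 31 and had 178, 130 and 707 CPM, with endothelial markers at 886, 757 and 887 CPM. *Isg15* had 5 UMIs in cKO astrocytes and 0 in cKO Muller glia. *Zbp1* measured 14.7, 4.57 and 13.9 CPM in Muller glia, on 57, 12 and 2 UMIs, and so stood higher in WT Muller glia than in WT ECs (3.35 CPM).

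Neurons and their precursors (rods, cones, bipolar and amacrine cells, neurogenic precursors and progenitors) had the lowest levels of the named classes, 102, 74.6 and 535 CPM over 4696, 7423 and 1298 cells. Each of the 6 classes alone had 446 to 578 CPM in the cKO and 65.5 to 124 CPM in the other libraries. *Ifitm3* measured 14.0, 4.27 and 210 CPM, *Isg15* 0.712, 0.243 and 7.09 CPM and *Ifit1* 0, 0.0122 and 4.50 CPM. *Stat2* differed less, at 15.2, 15.3 and 19.2 CPM, and in WT its neuronal level was 108% of the EC level. *Ifit2* likewise measured 2.45, 2.21 and 2.94 CPM.

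Endothelial and microglial markers moved with these neuronal values. Endothelial markers summed to 245, 180 and 477 CPM in neurons, or 2.67%, 2.15% and 6.21% of the EC level of the same library, with 10 of 10 higher in the cKO than in WT, and microglial markers to 80.8, 60.9 and 447 CPM, also 10 of 10 higher. The members stood at 7.01%, 5.53% and 8.84% of the EC level. In the cKO single members ranged from 1.72% (*Gbp3*) to 74.0% (*Ifi27l2a*) of their EC level, with *Isg15* at 4.30% and *Ifitm3* at 8.19%. The share of thinned neurons with at least 3 member UMIs was 0.338%, 0.132% and 10.7%, and 0 cells of any library reached 10. The part of free RNA in the neuronal values was not tested.

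**Figure D5:**
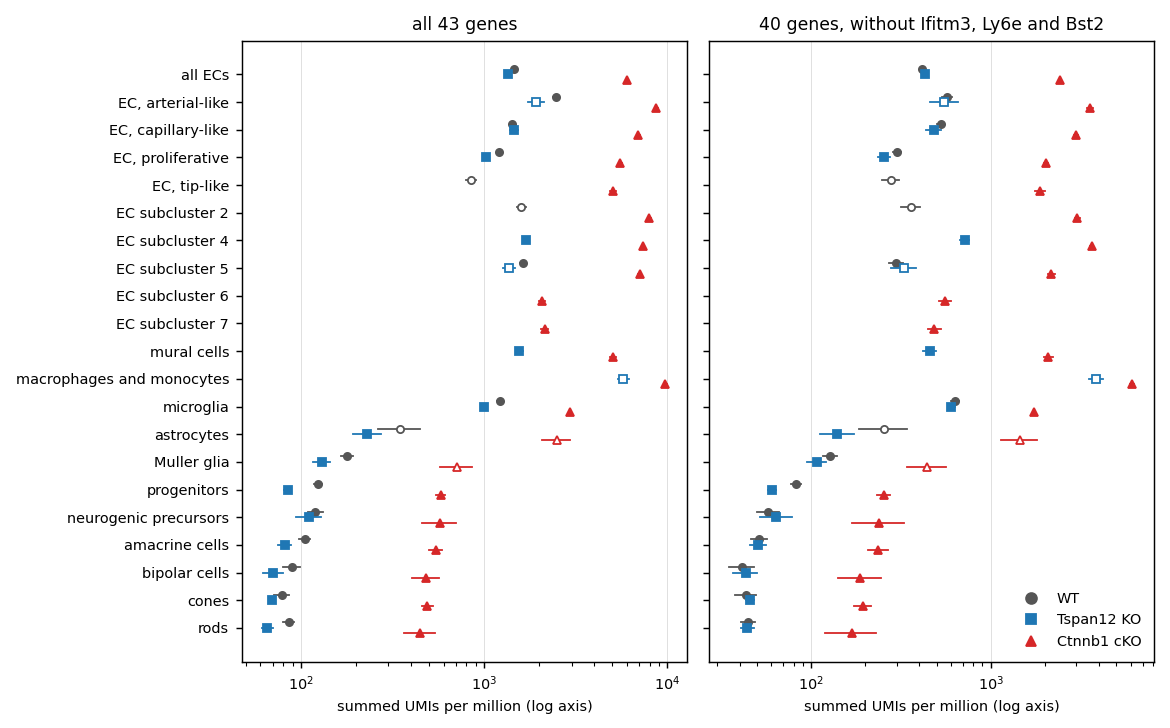
Summed CPM of the 43 genes, and of the 40 genes without *Ifitm3*, *Ly6e* and *Bst2*, by cell set and library on a log axis, with exact Poisson intervals; open symbols stand for 20 to 49 cells and sets under 20 cells are left out. The *Ctnnb1* cKO point lies above the WT and *Tspan12* KO points in the sets where they are drawn, and neurons lie lowest.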

How the data were processed

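Retinal cells of postnatal day 6 mice were sequenced with the 10x Genomics 3′ chemistry, 1 library per genotype. The values used are the authors' deposited counts, whole UMI counts per gene and barcode from Cell Ranger 8.0.1 (matrix header) over 33696 genes; the submitters' processing notes name the build GRCm39 and the study's methods mm10, so no coordinate was taken from the count files. Cells under 250 genes or 500 UMIs, or over 15% mitochondrial UMIs, were dropped, and the cells with the highest doublet scores were removed at 0.8% per 1000 cells (Scrublet scores; its own threshold had marked 0, 1 and 343 cells of WT, *Tspan12* KO and *Ctnnb1* cKO). Clustering (scanpy 1.11.5, 2000 variable genes, 30 components, 20 neighbours, Leiden resolution 1) left out 173 genes, the 43 members and the other listed interferon genes. It gave 30 clusters, of which 5 stayed unnamed. A cluster was named from class markers when at least 3 were raised at a log2 fold of 1 and detected in 10% of its cells. ECs were clustered again on values centred within each library, into 10 subclusters. Cell type names stand for cells that look like that class.

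UMIs were summed per library and cell set and given as CPM with exact Poisson intervals (95%). Ratios of CPM carry conditional exact binomial intervals and shares exact Clopper-Pearson intervals. With 1 library per genotype no p-value, SE or call of a changed gene was computed. A gene was compared where both libraries together held 50 UMIs, a 2-fold ratio was the line for counts, and a library at 0 was set to a limit of 3 UMIs. Library sizes ran from 37008362 to 137114957 UMIs. The median log2 ratio was recomputed under trimmed mean scaling (edgeR 4.0.16) and other settings. The ratios and their intervals were also computed on simulated counts. These held only the counting error that the intervals assume, so they say nothing on differences between cells or libraries. The members, the pathway lists and the named genes (all 43 by role, the main receptors, sensors and factors, each ligand with a UMI, and the 5 highest and 3 lowest other interferon-stimulated genes) were chosen with earlier results of these data known, and values of 1 gene of these lists are left out. ISRE and GAS letters were searched in RefSeq promoter windows of 300 bases. Python 3.11.15 and R 4.3.3 were used.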

Additional observations from a re-analysis of the deposited data

Results flagged for a closer look

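The *Tspan12* KO value of *Trim30a* pointed in opposite directions in different cell classes of the same pair of libraries. It was 1.01 (0.66 to 1.35) on the log2 scale in ECs and -1.26 (-1.93 to -0.59) in neurons and precursors, and the difference was not tested. In the EC cluster shared by the 3 libraries the EC value was -0.37.

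*Ifnb1*, which encodes interferon beta, had 35 UMIs, all of the *Tspan12* KO library. Of these, 29 lay in 1 cell of 1504 UMIs placed with microglia, in which 1 of 10 microglial markers was detected. Members made up 4.45% of its UMIs, against 0.0823% in the median cell of the class, and it held 7 UMIs of *Cxcl10* and 19 of *Ccl5*. The other 6 UMIs lay in 6 cells.

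Macrophages and monocytes of the *Ctnnb1* cKO library summed to 9749 CPM over the 43 genes, and the unnamed cluster 27, led by *S100a8* and *S100a9*, to 9124 CPM on 112 cKO cells. The same cluster had 4166 CPM on 23 WT cells. WT held 2 macrophages and monocytes, so these cells entered no comparison with WT.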

How the results depend on the processing

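No paired analysis was possible because each genotype had 1 library. The median log2 ratio of the members in *Ctnnb1* cKO ECs (2.76) kept its sign in all 10 alternatives and moved to 2.09 with a pseudocount of 5 CPM, 4.01 with cells gated on markers (36 members), 2.43 with cells thinned to 2000 UMIs, 2.44 in the shared EC cluster and 3.03 without EC cluster 18. The last 2 settings were chosen after seeing the data. The gate took 248 WT cells of which 75 were in the EC class, so it compared other cells. The count of 40 members ranged from 34 to 40. In *Tspan12* KO ECs the median (-0.07) became 1.73 under the gate (3 members) and -0.38 in the shared cluster. The count of 2 became 3 of 41 with no minimum count, 1 with trimmed mean scaling, 1 with the pseudocount and 1 with no doublets removed, and 0 with thinning or in the shared cluster, where *Trim30a* turned to -0.37; fewer members were tested in the last 2 settings. The microglial medians, 1.65 in *Ctnnb1* cKO and -0.22 in *Tspan12* KO, stayed within 1.22 to 1.93 and -0.33 to 0.11. The median in rods and photoreceptor precursors (0.997 over 4 members) became 3.44 with no minimum count (23 members) and 2.70 with no doublets removed (9 members).

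The share of ECs with at least 3 member UMIs, given as WT, *Tspan12* KO and *Ctnnb1* cKO, became 21.6%, 19.2% and 77.1% at 1000 UMIs, 85.8%, 82.5% and 99.1% at 4000 UMIs, 90%, 86.5% and 99.4% for at least 1 UMI, 7.88%, 10% and 60.6% without the 3 most counted genes, and 49.3%, 39.0% and 95.8% in the shared cluster. Under the gate it was 16.7% in WT and 37.5% in *Tspan12* KO, and with no doublets removed 91.7% in *Ctnnb1* cKO. The *Ctnnb1* cKO share was above both others in each of these settings. Of 161 values recomputed for all results, 101 moved by less than their counting interval and the others by more. Besides *Trim30a* and the *Tspan12* KO EC median, the sign turned for *Samd9l* in *Ctnnb1* cKO ECs under the gate (-0.47 to 0.64) and for the *Tspan12* KO microglial median with a mean over cells (0.11). At these depths genes with a few UMIs in WT ECs, such as *Ifit3* and *Iigp1*, had ratios known only within wide intervals.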

Other observations

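Other interferon-related genes were measured in the same cells. In microglia *Irf1* measured 32.8, 24.9 and 157 CPM (WT, *Tspan12* KO, *Ctnnb1* cKO; log2 ratio of the last to the first 2.26). *Cxcl10*, a chemokine induced by interferon, measured 130, 83.2 and 206 CPM, and *Irf8*, a factor of myeloid identity, 344, 532 and 432 CPM. Of 48 other interferon-stimulated genes with 50 UMIs in microglia the median log2 ratio was 0.74. In the EC cluster shared by the 3 libraries the same list had a median of 1.47 over 46 genes.

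Pigment cells numbered 102 in *Ctnnb1* cKO and summed to 975 CPM over the 43 genes. The unnamed cluster 3, with 72, 311 and 1596 cells of WT, *Tspan12* KO and *Ctnnb1* cKO, had 333, 241 and 565 CPM. The microglial cluster led by *Cxcl10* had 971, 1031 and 3724 CPM on 7, 16 and 203 cells. *Slfn2*, which is needed for lymphocyte quiescence, had a log2 ratio of 3.32 (2.34 to 4.42) in *Tspan12* KO ECs, the highest of the other interferon-stimulated genes with 50 UMIs there.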
